A study of Rattus norvegicus with 6 samples.

Results

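Type I collagen, type III collagen, fibronectin and Sparc are matrix proteins that fibroblasts lay down while a tendon heals, and their genes were followed here as 5 of the 22250 gene IDs in the deposited count table. The members were Col1a1 (ENSRNOG00000003897), Col1a2 (ENSRNOG00000011292), Col3a1 (ENSRNOG00000003357), Fn1 (ENSRNOG00000014288) and Sparc (ENSRNOG00000012840). They were taken from a list that pairs each ID with its symbol. The list applied no threshold on a measured value, but it was drawn up with earlier results of these data known. All 5 were present and passed the filter on low counts. The deposited table holds IDs only.

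RNA came from the achilles tendons of Sprague-Dawley rats, 6 weeks old at the start, in which the tendon was cut through and repaired with a suture in one operation. The tendon injury model group (3 rats) received no drug, and whether a vehicle was injected is not given in the sources used here. In the celecoxib + lactoferrin treatment group (3 rats), each rat was given local injections once a day, with 10 mg/kg of celecoxib, an inhibitor of cyclooxygenase-2, and 2 g/kg of lactoferrin, an iron-binding glycoprotein. Both groups had this operation and both were sampled on day 14 after surgery, so no uninjured tendon was compared here. Each of the 6 samples was taken as 1 rat, and the library totals lay between 34546567 and 47181784 counts. Celecoxib + lactoferrin replicate 1 stood apart from the other libraries over all genes tested: its mean Pearson's r of log2 CPM with them, across genes, which are not independent replicates, was 0.902, against 0.919 to 0.936 for the others. The log2 fold changes of the members and the type III to type I collagen ratio are also given without it.

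In an uninjured tendon most of the dry matter is type I collagen, a triple helix of α1 chains (Col1a1) and α2 chains (Col1a2). After a transection, fibroblasts first lay down a provisional matrix rich in fibronectin and in the thinner fibrils of type III collagen, which is replaced by type I collagen as the tissue remodels. The type III to type I ratio is therefore a common readout of how far a repair has advanced. Sparc, also called osteonectin, is a secreted glycoprotein that binds collagen and takes part in fibril assembly.

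The 5 genes were among the most abundant of every library. Together they took 19.9%, 16.1% and 21.3% of the counts in injury model replicates 1, 2 and 3. In celecoxib + lactoferrin replicates 1, 2 and 3 they took 21.7%, 17.8% and 17.4%. The group means were 19.1% ± 2.68 (SD, n = 3) and 18.9% ± 2.36 (SD, n = 3), a difference smaller than the spread within either group (exact permutation test, two-sided, p = 1.0; with 3 rats a group the smallest possible p is 0.1). The 10 most abundant genes of each library took between 22.6% and 28.3% of its counts, and the members made up most of that fraction. In celecoxib + lactoferrin replicate 2 Sparc ranked 11 and so was not part of it. These are shares of counts, which grow with transcript length as well as with the number of transcripts, and no transcript lengths were at hand. In bulk tissue, fewer cells of a type and less RNA per cell cannot be told apart.

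Col1a1, which encodes the α1 chain, had the highest count of all genes in all 6 libraries. It took 7.63%, 5.73% and 8.36% of the counts in injury model replicates 1, 2 and 3. Its shares in celecoxib + lactoferrin replicates 1, 2 and 3 were 8.69%, 7.88% and 6.78%. The groups overlapped, with the lowest value in injury model replicate 2 and the highest in celecoxib + lactoferrin replicate 1.

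Col1a2, which encodes the α2 chain, ranked 3 or 4 in each library. Its shares were 2.39%, 2.46% and 3.12% in the injury model rats and 2.87%, 2.65% and 2.47% in the treated rats. All 3 treated values lay inside the range of the injury model values. The means were 2.66% ± 0.402 and 2.66% ± 0.199 (SD, n = 3 each).

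Col3a1, the single gene behind the homotrimer of type III collagen, ranked 2 in all 6 libraries and varied least of the 5 genes. Its shares were 5.47%, 5.13% and 5.64% in injury model replicates 1, 2 and 3. Treated replicates 1, 2 and 3 had 5.27%, 4.62% and 5.07%. The treated rats were on average lower, at 4.99% ± 0.332 against 5.41% ± 0.261 (SD, n = 3 each), but the groups overlapped (two-sided exact permutation test, p = 0.2).

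Fn1, which encodes fibronectin, the adhesive glycoprotein that cells bind through integrins, ranked 3 to 5. Its shares were 2.98%, 1.73% and 2.88% in the injury model rats (replicates 1, 2 and 3), and 3.28%, 1.69% and 1.88% in the treated rats in the same order. Treated replicate 1 and injury model replicates 1 and 3 were all at or above 2.88%, whereas the other 3 libraries were all at or below 1.88%. Each of these levels held rats of both groups. After TMM normalization, which scales each library by its bulk of genes, Fn1 lay between 29489 and 33757 CPM (counts on a common scale of library size) in the 3 higher libraries and between 16213 and 17244 CPM in the 3 lower ones.

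Sparc ranked 6 to 11. Its shares were 1.42%, 1.09% and 1.33% for the injury model rats and 1.55%, 0.938% and 1.19% for the treated rats, in the order of their numbers. The same 3 libraries that were high in Fn1 had the 3 highest shares of Sparc, and of Col3a1 as well. Both the highest and the lowest Sparc share belonged to treated rats. For all of these shares the 95% Wilson interval was at most 0.0093 percentage points to either side, so counting error was small beside the differences between rats. Such intervals cover counting error only.

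**Figure D1:**
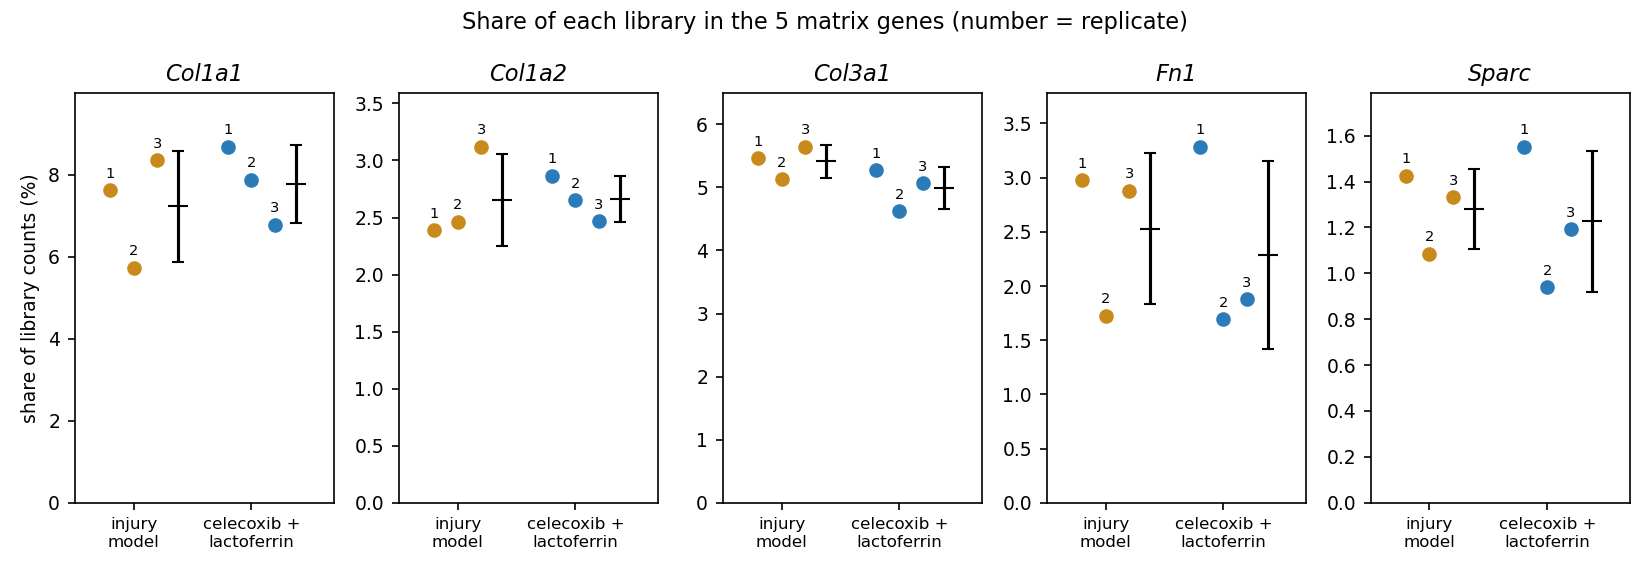
Share of library counts (%, y axis, starting at 0 in each panel) for Col1a1, Col1a2, Col3a1, Fn1 and Sparc. Each point is 1 rat, numbered by replicate, in the injury model group (ochre) or the celecoxib + lactoferrin treatment group (blue), and black bars give the mean ± SD of 3 rats. The groups overlap in all 5 panels, and Fn1 falls into a higher and a lower level within both groups.

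Compared to the tendon injury model group, no member passed the test in the celecoxib + lactoferrin treatment group: the fitted levels of Col1a2, Col3a1, Fn1 and Sparc were between 0.865-fold and 0.967-fold, and that of Col1a1 1.03-fold, those of the injury model rats. In edgeR's quasi-likelihood test over the 15122 genes tested, 0 of 5 members had an unadjusted p-value under 0.05, the threshold used by the study, where 2.61% of all genes tested had one. After Benjamini-Hochberg adjustment over all genes tested the number was 0 of 5, beside 0.00661% of all genes. DESeq2, the tool named in the study's methods, also called 0 of 5 at an unadjusted p-value under 0.05, against 3.21% of the genes it tested. The 3 CPM values of one group lay wholly apart from those of the other in 0 of 5 members and in 7.80% of all genes tested.

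The fitted differences were small beside their intervals. Col1a1 had a mean level of 74514 ± 17966 CPM in injury model rats and 76856 ± 13582 CPM in treated rats (TMM-normalized; SD, n = 3 each). Its log2 fold change was 0.04 (standard error 0.28, 95% interval -0.60 to 0.69). For Col1a2 the log2 fold change was -0.05 (standard error 0.24, 95% interval -0.60 to 0.50). As folds, these intervals ran from 0.658 to 1.62 for Col1a1 and from 0.66 to 1.42 for Col1a2, so a change of either chain of type I collagen within these bounds could not be told from none with these rats.

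Col3a1 had 55390 ± 6418 CPM in injury model rats and 49028 ± 4480 CPM in treated rats (SD, n = 3 each). Its log2 fold change of -0.18 (standard error 0.22, 95% interval -0.70 to 0.34) came with the narrowest interval of the 5 genes. Fn1 had 26185 ± 8798 and 22656 ± 9615 CPM (SD, n = 3 each), with a log2 fold change of -0.21 (standard error 0.38, 95% interval -1.09 to 0.68), the widest interval. For Sparc the levels were 13177 ± 2791 and 12096 ± 3422 CPM (SD, n = 3 each), and the log2 fold change was -0.12 (standard error 0.29, 95% interval -0.79 to 0.54). The adjusted p-value of each of the 5 genes was 0.998 in edgeR. Their median log2 fold change was -0.12, beside 0.0067 over all genes tested.

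Single rats moved the values of Fn1 and Sparc most. Without celecoxib + lactoferrin replicate 1, the treated rat with the highest Fn1 and Sparc, the log2 fold change of Fn1 was -0.62 and that of Sparc -0.37. For Col1a1, Col1a2 and Col3a1 the values without this rat were -0.08, -0.14 and -0.25. Without injury model replicate 1 those of Fn1 and Sparc were -0.01 and 0.02. In none of the 16 fits run, this one and its alternatives included, did a member have an unadjusted p-value under 0.05, and the smallest was 0.178, for Fn1 without celecoxib + lactoferrin replicate 1.

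**Figure D2:**
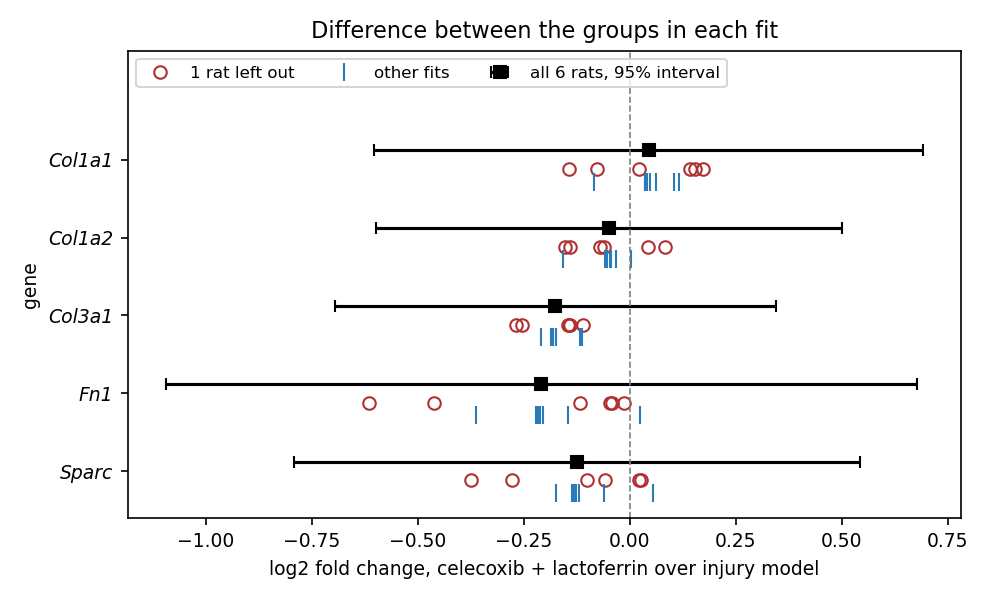
Log2 fold change of each gene, celecoxib + lactoferrin over injury model (x axis), with 1 gene per row. Black squares and bars give the edgeR estimate from all 6 rats with its 95% interval, red circles the fits that each left out 1 rat, and blue ticks the other fits. All 5 intervals include 0, and the circles of Fn1 run from -0.62 to -0.01.

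The type III to type I collagen ratio was taken within each library as Col3a1 counts over the sum of Col1a1 and Col1a2 counts, which needs no scaling between libraries. Because transcript length enters it, its absolute size is not a ratio of molecules, but it can be compared between rats. The ratio was 0.545, 0.626 and 0.492 in injury model replicates 1, 2 and 3. In treated replicates 1, 2 and 3 it was 0.456, 0.439 and 0.548. Treated replicates 1 and 2 were lower than every injury model rat, whereas treated replicate 3 lay between injury model replicates 1 and 2.

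The mean ratio was 0.554 ± 0.0675 for injury model rats and 0.481 ± 0.0585 for treated rats (SD, n = 3 each). On the log2 scale the difference was -0.20 (standard error 0.14), or 0.868-fold, with p = 0.3 in a two-sided exact permutation test. It kept this direction in all 10 alternatives run, with values between -0.30 (without celecoxib + lactoferrin replicate 3) and -0.11 (without injury model replicate 2). Without celecoxib + lactoferrin replicate 1 it was -0.17. With Col1a1 alone as type I collagen the difference was -0.23, and with Col1a2 alone -0.13.

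The depth of the libraries moved with this ratio. Treated replicate 3 and injury model replicates 1 and 2 had at least 45097576 counts and ratios from 0.545 to 0.626. The other 3 libraries had at most 35196726 counts and ratios from 0.439 to 0.492, so the ratios of deeper and shallower libraries did not overlap. On the log2 scale, the treated rat minus the mean of both injury model rats was -0.09 within the deeper libraries, and the mean of both treated rats minus the single injury model rat was -0.14 within the shallower ones. Averaged over both, the difference was -0.11 (two-sided exact permutation test within the depth groups, p = 0.333, smallest possible 0.111). The shares of the type I collagen genes were split by depth as well. Col1a1 took 5.73% to 7.63% in the deeper and 7.88% to 8.69% in the shallower libraries. Col1a2 took 2.39% to 2.47% and 2.65% to 3.12%, whereas the Col3a1 shares overlapped. In TMM-normalized CPM the levels of Col1a1 overlapped and those of Col1a2 did not. The labels do not say whether these libraries were made or sequenced in batches, and the part of depth in the ratio and in these shares was not tested.

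**Figure D3:**
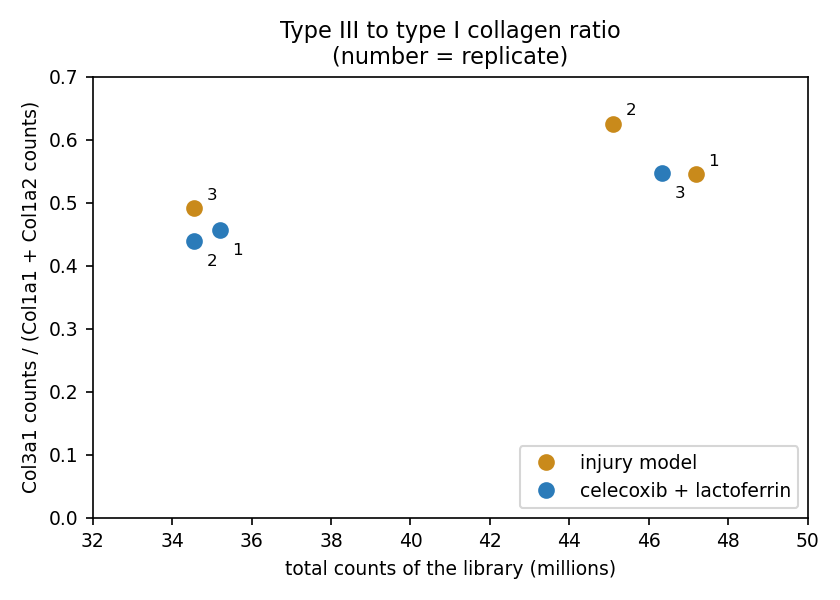
Type III to type I collagen count ratio (y axis, starting at 0) against the total counts of the library (x axis), 1 point per rat, numbered by replicate and coloured by group. The 3 libraries of at least 45097576 counts lie at 0.545 to 0.626 and the 3 of at most 35196726 counts at 0.439 to 0.492, with both groups in each.

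The other proportions among the 5 genes overlapped between the groups as well. They were chosen after the values had been seen. The ratio of Col1a1 to Col1a2 counts, which compares the chains of one collagen, was 3.20, 2.33 and 2.68 in the injury model rats and 3.03, 2.98 and 2.75 in the treated rats, so the treated rats lay within the injury model range. Fn1 counts relative to type I collagen were 0.297, 0.211 and 0.251 in the injury model rats and 0.284, 0.161 and 0.203 in the treated rats, in the order of their numbers. Sparc relative to type I collagen lay between 0.116 and 0.142 in the injury model rats and between 0.0891 and 0.134 in the treated rats. Including Sparc relative to Fn1, 5 ratios were tested, and the adjusted p-value of each was 0.7 (two-sided exact permutation tests).

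The genes differed from each other in how much they varied between rats of one group. The spread of log2 CPM within groups (SD, pooled over both) was 0.558 for Fn1, 0.358 for Sparc, 0.327 for Col1a1, 0.213 for Col1a2 and 0.152 for Col3a1, beside a median of 0.324 over all genes tested. A lower spread than that of Col3a1 was found in 11.4% of the genes tested, and a lower one than that of Fn1 in 76.7%. From the lowest to the highest library, Fn1 covered a 2.08-fold range of CPM and Col3a1 a 1.30-fold range.

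**Figure D4:**
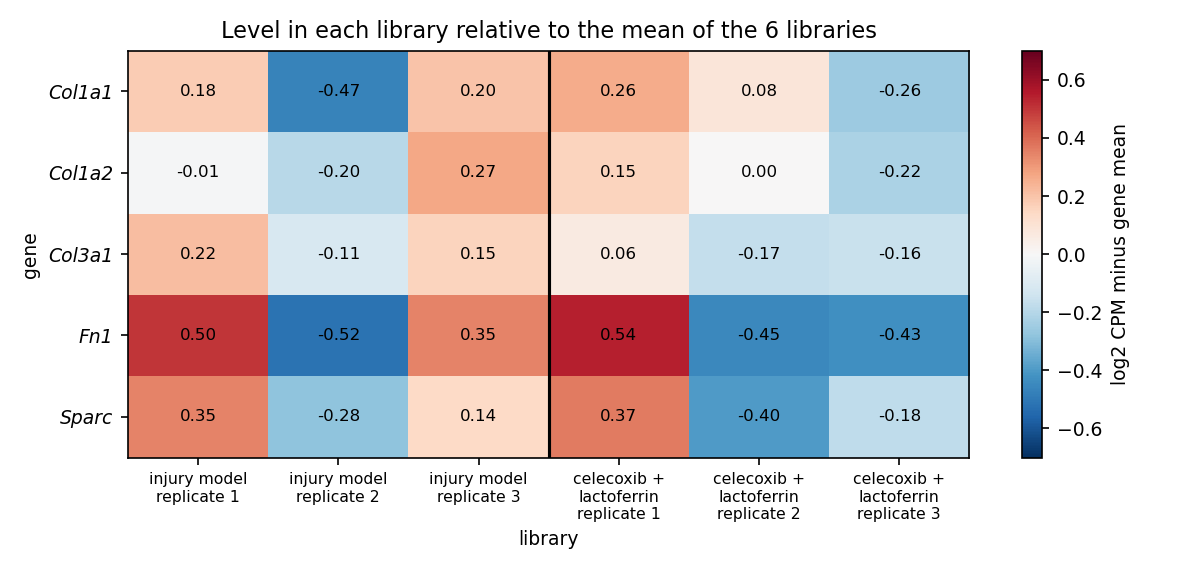
Log2 CPM of each gene (rows) in each library (columns) minus the mean of the gene over the 6 libraries, with the value in each cell, red above and blue below the mean. The black line divides the injury model group (left) from the celecoxib + lactoferrin treatment group (right). Fn1 and Sparc are above their mean in the same 3 libraries, and Col1a1 and Col1a2 are lowest in injury model replicate 2 or celecoxib + lactoferrin replicate 3.

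Relations between the members across the 6 rats were computed for all 10 pairs, over both groups and on values that share the scaling of their library. For the 2 chains of type I collagen, Pearson's r of log2 CPM was 0.856 (exact permutation p = 0.0361, adjusted p = 0.12) and Spearman's rho 0.829 (exact permutation p = 0.0583, adjusted p = 0.194). Without the rats farthest from the median of Col1a1 (injury model replicate 2 and treated replicate 3), r was 0.597. For Col3a1 and Sparc r was 0.889 (exact permutation p = 0.0528, adjusted p = 0.128) and rho 0.771 (exact permutation p = 0.103, adjusted p = 0.206), and r was 0.949 without injury model replicates 1 and 3. Of the 3 libraries highest in both genes this left treated replicate 1 alone, so the value of 0.949 rests mainly on 1 rat. No pair had an adjusted p-value under 0.05. As the Fn1 levels formed 2 separate clusters of 3 rats, no pooled r or rho is given for the pairs with Fn1. These include the pair with the highest r, Fn1 and Sparc. Col3a1 and Sparc were split between the same rats. The higher 3 had at least 54197 CPM of Col3a1 and 13630 of Sparc, the lower 3 at most 48124 and 10952. The pooled r of Col3a1 and Sparc therefore has the same limit, and the split in Sparc also limits that of Col1a2 and Sparc below.

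Among the other 15121 genes tested, ranked by Pearson's r of log2 CPM over the 6 libraries, Col1a2 ranked 330 in likeness to Col1a1 and Col1a1 ranked 166 in likeness to Col1a2. The gene most like Col1a1 was ENSRNOG00000016760 (r = 0.998 over 6 libraries) and the gene most like Col1a2 was ENSRNOG00000004029 (r = 0.999 over 6 libraries). Over so few libraries and so many genes, such values of r are a description only. ENSRNOG00000004029 had low levels, from 0.456 CPM in celecoxib + lactoferrin replicate 3 to 2.99 CPM in injury model replicate 3 (TMM-normalized). Col1a2 lay between 22690 and 31933 CPM, a 1.41-fold range. Pearson's r compares neither the level nor the size of the changes, so its high value does not make the 2 genes alike in these.

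Promoter sequences were at hand for Col1a2 and Sparc, which were also the pair of members with the lowest r across the rats, and are shown to set their upstream letters side by side. For this pair r was 0.584 (exact permutation p = 0.25, adjusted p = 0.25) and rho 0.371 (exact permutation p = 0.497, adjusted p = 0.497), and r was 0.622 without replicate 3 of both groups. Col1a2 was highest in injury model replicate 3 and Sparc in celecoxib + lactoferrin replicate 1. The sequences are the 250 bases before the RefSeq start of each gene in the build GRCr8, at chr4:33518307-33518556 on the plus strand for Col1a2 and at chr10:40038817-40039066 on the minus strand for Sparc, written 5′ to 3′ along the gene. No entries for Col1a1, Col3a1 and Fn1 were at hand. Capitals mark any CCAAT (the box bound by NF-Y), TATAAA (the TATA box) or GGGCGG (a GC box bound by Sp1) on either strand.
Col1a2: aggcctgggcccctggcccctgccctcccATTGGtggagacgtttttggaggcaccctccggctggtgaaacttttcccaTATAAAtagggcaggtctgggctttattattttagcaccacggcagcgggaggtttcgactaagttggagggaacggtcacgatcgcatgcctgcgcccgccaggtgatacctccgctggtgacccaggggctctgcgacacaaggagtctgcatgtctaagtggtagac
Sparc: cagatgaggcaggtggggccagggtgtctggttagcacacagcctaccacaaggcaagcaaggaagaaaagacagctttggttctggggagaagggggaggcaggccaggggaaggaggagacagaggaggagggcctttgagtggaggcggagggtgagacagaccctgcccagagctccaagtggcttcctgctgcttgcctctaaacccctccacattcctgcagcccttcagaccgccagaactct
Col1a2 held CCAAT on the other strand, 221 to 217 bases before the start, and TATAAA 170 to 165 bases before it. Sparc held none of these letters in this window. Of all 33469 promoters of the same length in the table, 34.0% held CCAAT, 12.9% TATAAA and 30.5% GGGCGG on either strand. The GC content was 58.4% for Col1a2 and 60.0% for Sparc, beside a median of 51.2% over all promoters. A match to these letters is a description and not a shown binding site. Distances are counted from the RefSeq start, and where transcription begins in these tendons was not tested. Part of a window may therefore be transcribed.

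Other genes of collagen synthesis and cross-linking, collagen receptors, and markers of tendon cells, muscle, macrophages, adipocytes and endothelium were not analysed here, since the reference table of rat genes paired 0 of the IDs with symbols. The label of the tissue as tendon was therefore not checked, and the rank of the 5 matrix genes cannot check it.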

How the data were processed

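Messenger RNA was measured in tendons of 3 injury model rats and 3 celecoxib + lactoferrin rats on day 14. The authors sequenced on an Illumina HiSeq instrument, checked reads with FastQC, dropped those of low quality and aligned the rest with HISAT2 to Ensembl Rnor_6.0. The submitters' processing notes name the human build GRCh38.p13, whereas all IDs are rat Ensembl IDs. The authors deposited raw counts per gene ID, without normalization. The tool that counted reads, its use of strand and its rule for reads with several matches are not given in the sources used here. The labels give 14 days as an age, which was taken as the time since surgery.

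Groups follow the sample titles. The columns of the table, M and RS with a number, were matched to them by the sample names of the study's own heatmap. EdgeR 4.0.16 in R 4.3.3 (quasi-likelihood fit with robust estimation, TMM, filterByExpr, Benjamini-Hochberg adjustment over 15122 genes) was the main test, with DESeq2 1.42.0 and limma 3.58.1 (voom) as alternatives. The test was checked on simulated data with known changes. All of these were larger than the changes fitted for the members, so the check says nothing about changes as small as theirs. Standard errors and 95% intervals came from the F statistics of the fit. Shares and ratios were compared with exact permutation tests in SciPy 1.17.1. Log2 CPM used a prior count of 2. TMM factors lay between 0.907 and 1.09. No pair of libraries was a duplicate (chi-square per degree of freedom at least 80.2). Total counts per library lay between 34546567 and 47181784.

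All 5 members were named, and of the genes most like them the 2 nearest to Col1a1 and Col1a2 were given by ID. The members and lists were chosen with earlier results of these data known. The 11 other lists, of 105 genes, were fixed by symbol and not used. The test, the scaling, the low-count filter and the library total were varied, a replicate block or a depth term was added, and each rat was left out in turn (library depth only after seeing the data). Promoters came from RefSeq (GRCr8), matched by symbol for 2 of 5 members.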

Additional observations from a re-analysis of the deposited data

How the results depend on the processing

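In edgeR, 395 genes passed an unadjusted and 1 an adjusted threshold of 0.05. With an adjusted p-value under 0.05, 26 genes were called by DESeq2, 3 without a filter on low counts, and 0 with at least 10 counts in every library, with the replicate block or with voom, beside 407, 326 and 506 genes at an unadjusted p-value under 0.05. Leaving out 1 rat gave 226 to 890 genes at the unadjusted and 1 to 9 at the adjusted threshold. The extremes were 226 without injury model replicate 1, 890 without celecoxib + lactoferrin replicate 3 and 9 without injury model replicate 2. A term for library depth, added after the data had been seen, gave 223 genes. Of the genes called, 53.9% were higher in treated rats with TMM (213 higher, 182 lower) and 71.1% with library size alone (285 and 116), but 45.7% with DESeq2 (264 and 314), 38.1% with the depth term (85 and 138) and 37.6% without injury model replicate 3 (178 and 295). Library size alone also moved the median of all log2 fold changes from 0.0067 to 0.060. The cause of these moves was not tested.

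Of the 5 members, Col3a1 kept its direction under all 15 alternatives, between -0.27 and -0.11 (log2). Col1a1 turned to -0.085 with the depth term, Col1a2 to 0.0025 with library size alone, and with voom Fn1 turned to 0.025 and Sparc to 0.055. With 1 rat left out in turn the log2 fold change ran from -0.14 to 0.17 for Col1a1, from -0.15 to 0.083 for Col1a2, from -0.62 to -0.01 for Fn1 and from -0.37 to 0.025 for Sparc.

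With TMM-normalized library sizes the difference in share moved from -0.423 to -0.636 percentage points for Col3a1. That of Col1a2, 0.0047, turned to -0.090 with these sizes, to -0.0043 with the members taken out of the total and to -0.159 within depth groups. With 1 rat left out in turn, differences in share ran from -0.210 to 1.10 percentage points for Col1a1, from -0.130 to 0.236 for Col1a2, from -0.565 to -0.241 (without celecoxib + lactoferrin replicate 2) for Col3a1, from -0.743 to 0.051 for Fn1, from -0.216 to 0.091 for Sparc and from -1.66 to 0.936 for their sum. No exact test of 3 rats against 3 can fall below p = 0.1, so these p-values say nothing about stability.

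The labels number the rats alike in both groups. With the number as a replicate block the log2 fold changes were 0.06, -0.04, -0.17, -0.22 and -0.14 for Col1a1, Col1a2, Col3a1, Fn1 and Sparc, and the block changed no call of a member. Deviations of same-numbered rats correlated at -0.267 to 0.0568 across genes, too few pairs to tell whether numbers pair rats. For the type III to type I ratio the differences within numbers gave p = 0.5 (exact sign-flip test, smallest possible 0.25).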

Other observations

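One of the 10 genes with the highest mean share of counts, chosen after its values were seen, was far more variable than the members. ENSRNOG00000049695 took 0.646%, 2.09% and 0.51% of the counts in injury model replicates 1, 2 and 3 and 0.000963%, 0.899% and 1.42% in celecoxib + lactoferrin replicates 1, 2 and 3, with 339 counts in treated replicate 1 and 940682 in injury model replicate 2. Its levels are part of the library total behind each share above.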
